A study of Mus musculus with 16 samples.

Results

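The genes described here encode the machinery that holds RNA polymerase II (Pol II) near the start of a gene and then lets it move into the gene body. The set holds 44 named genes, listed by their complexes and functions and chosen with earlier results of these data known. It covers the pausing factors NELF and DSIF, the pause-release kinase P-TEFb and the 7SK particle that inhibits it, BET proteins, CDK12 and CDK13, the super elongation complex, the PAF1 complex, FACT, and subunits of the polymerase itself. All 44 were found among the 55416 gene IDs of the count table, and all 44 passed the filter on low counts, among 14168 genes tested. RNA came from bone marrow macrophages of the Hoxb8 line, in which mouse progenitors are kept immature and dividing by Hoxb8 until they are allowed to mature. Macrophages were given apoptotic Jurkat cells, which are human T cell leukaemia cells, for 45, 90 or 180 min, or were kept alone. Each group had 4 libraries of total RNA depleted of ribosomal RNA. All groups share the Hoxb8 line, and the labels do not give the number of clones or of separate cultures, so each p-value reflects the spread among these libraries alone, which may be technical. When the macrophages kept alone were harvested is not given in the sources used here, so time in culture and contact with apoptotic cells cannot be told apart.

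Soon after it starts a transcript, Pol II often stops, held by NELF (negative elongation factor) and DSIF (the SPT4 and SPT5 pair). P-TEFb, a kinase made of CDK9 and a T-type cyclin, phosphorylates DSIF, NELF and the tail of the largest Pol II subunit, after which NELF leaves and elongation begins. The 7SK particle holds P-TEFb inactive through HEXIM1, and BET proteins and the super elongation complex bring active P-TEFb to genes. In macrophages this step is known for the control of early response genes, and the title of the series names it together with the uptake of dying cells.

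Library totals ranged from 10.7 M to 41.7 M counts, with the 45 min group deepest at 31.7 ± 7.27 M (SD, n = 4) and the 90 min group shallowest at 15.7 ± 1.97 M (SD, n = 4). The 10 macrophage markers, among them Csf1r, Adgre1 and Cd68, were all tested, and their summed level ran from 9714 to 12413 CPM over all libraries. Of 11 T cell markers none passed the filter, 5 (Cd3e, Cd3g, Cd2, Trbc1 and Trbc2) had no count in any library, and the summed level was at most 1.12 CPM in any library. Neutrophil markers summed to between 2.26 and 4.43 CPM, dendritic cell markers to at most 0.348 CPM, and progenitor markers to between 19.0 and 33.5 CPM, nearly all of it Hoxb8. In these summed levels the 4 groups overlapped, except for macrophage markers, which ran from 11421 to 12413 CPM in the 45 min libraries, from 10341 to 10789 CPM at 90 min, from 9714 to 11051 CPM at 180 min and from 10556 to 10804 CPM in macrophages alone. All 45 min libraries thus lay above all others. Reads from human RNA could be counted at conserved genes. The part of these differences and reads in the results was not tested.

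In macrophages alone the levels of the 44 genes, as CPM per kilobase of exon, spanned from 70.1 ± 1.04 for the BET gene Brd2 to 1.89 ± 0.151 for Mllt3, which encodes a reader protein of the super elongation complex (SD, n = 4 each). Ell2, an elongation factor of the same complex, stood at 65.7 ± 3.31 CPM per kilobase, and Polr2a, the catalytic subunit of Pol II, at 63.0 ± 2.84. Ell2 and Polr2a lay within their spread of each other. Aff1, a scaffold of the super elongation complex, followed at 43.2 ± 0.657, and Supt5, the large subunit of DSIF, at 35.9 ± 1.68. Cdk9 was at 18.1 ± 1.47 CPM per kilobase, and of its cyclins Ccnt1 was at 13.3 ± 0.528 and Ccnt2 at 5.93 ± 0.339. The other Pol II subunits measured were lower than Polr2a by this measure, between 2.12 ± 0.490 for Polr2l and 28.6 ± 2.77 for Polr2g. Length here is that of all annotated exons of a gene merged, such as 7067 bases for Polr2a and 5256 bases for Polr2c. The order of genes therefore depends on the annotation as well as on the transcripts present.

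**Figure D1:**
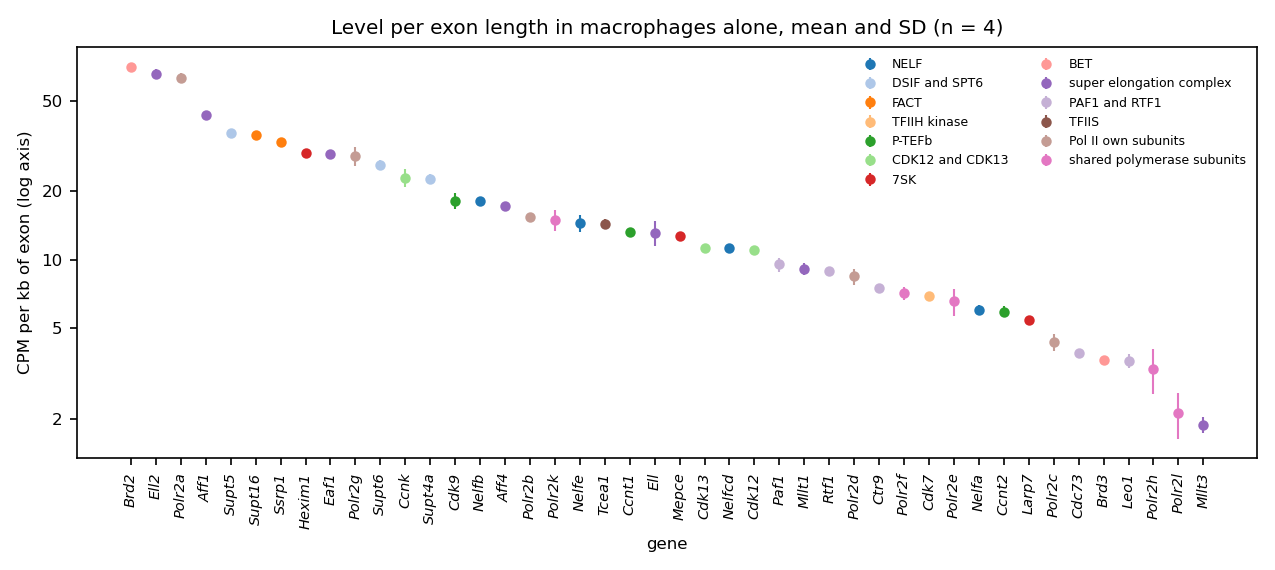
Level of each of the 44 genes in macrophages alone, in CPM per kilobase of exon on a log axis, with points at the mean and bars at 1 SD (n = 4), coloured by complex and ordered from high to low. Brd2, Ell2 and Polr2a lie above 60 CPM per kilobase, and Polr2l and Mllt3 are the lowest.

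Against macrophages alone, changes of the 44 genes were small and went both ways. At 45 min 2 genes rose and 4 fell by edgeR's quasi-likelihood test (adjusted p under 0.05 over all genes tested), beside 4.69% of all genes tested rising and 6.11% falling. At 90 min 5 rose (11.4%) and 9 fell (20.5%), beside 11.1% and 9.97% of all genes. At 180 min 9 rose and 9 fell (20.5% each), beside 15.1% rising and 16% falling of all genes. A test over the 3 times together called 23 of the 44 (52.3%), beside 44.6% of all genes. The 44 genes were chosen with earlier results of these data known, so the shares are descriptions and not tests. Most of them lie near or moderately above the background, and the share falling at 90 min (20.5% beside 9.97%) lies further above it. That background was not matched for level. Among the 44, genes not called at 180 min had a lower median level than those called, and the part of level was not tested. The median log2 fold change of the 44 genes was -0.00, -0.04 and -0.05 at 45, 90 and 180 min. The largest absolute log2 fold change against macrophages alone was 0.67. Only Cdk9, Polr2a and Polr2c were called at each of the 3 times, and 15 of the 44 were called in none of the 6 comparisons among the groups, beside 47.1% of all genes. The 3 comparisons with macrophages alone share the same 4 libraries of that group. In bulk RNA, a smaller share of cells with a transcript and less transcript per cell cannot be told apart.

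**Figure D2:**
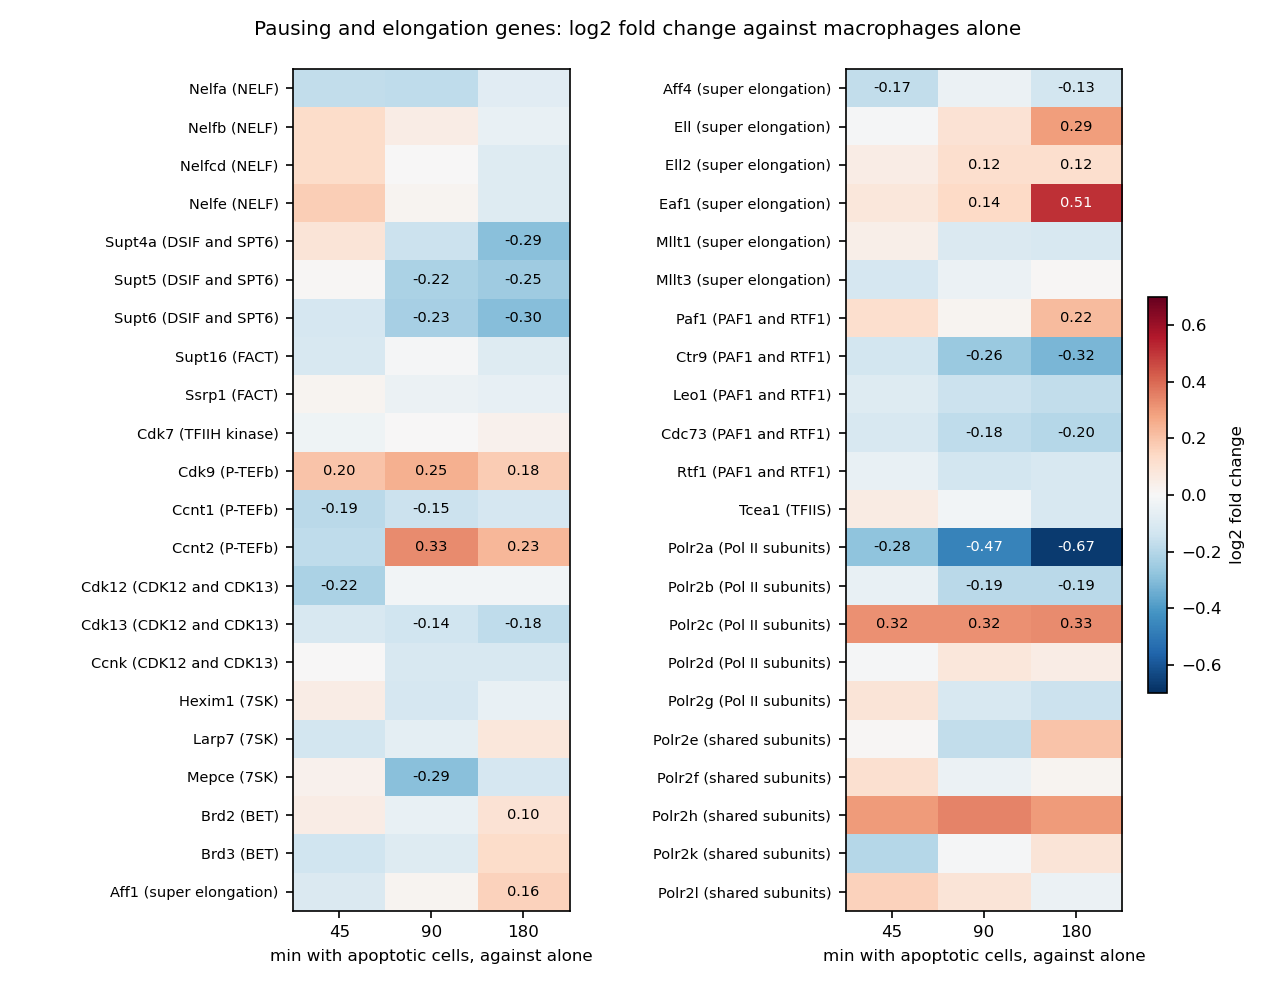
Log2 fold change of each gene at 45, 90 and 180 min against macrophages alone, with its complex in brackets, on a scale from blue (lower) to red (higher); a number is printed where the adjusted p was under 0.05. Polr2a has the deepest blue cells, at -0.28, -0.47 and -0.67, and Eaf1 at 180 min the deepest red, at 0.51.

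The subunits of Pol II did not move together. Polr2a (ENSMUSG00000005198, chromosome 11), which encodes the largest subunit with the active site and the tail that elongation kinases phosphorylate, fell at every time. Polr2a stood at 457, 419, 464 and 441 CPM in macrophages alone and at 358, 401, 336 and 373 CPM at 45 min. It stood at 300, 340, 311 and 331 CPM at 90 min and 271, 261, 295 and 292 CPM at 180 min. All libraries with apoptotic cells lay below all those alone, and the libraries of 180 min lay below all those of 90 min, while 45 and 90 min overlapped. Its log2 fold change against macrophages alone was -0.28 (SE 0.048, adjusted p = 2.03e-05) at 45 min, -0.47 (SE 0.048, adjusted p = 1.01e-11) at 90 min and -0.67 (SE 0.049, adjusted p = 7.54e-18) at 180 min. It also fell between the times, by 0.19 at 90 min against 45 min and by 0.20 at 180 min against 90 min (adjusted p = 0.00142 and 0.00306). All of these calls held under each of the 24 alternative settings, leaving out any library included.

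Polr2c (ENSMUSG00000031783, chromosome 8), whose product pairs with another subunit to start the assembly of the enzyme, went the other way. It stood at 22.7, 22.1, 25.5 and 21.0 CPM in macrophages alone and at 26.5, 27.3, 32 and 28.4 CPM at 45 min. The later values were 26.4, 32.2, 29.1 and 26.6 CPM at 90 min and 35.3, 28.7, 27.6 and 24.2 CPM at 180 min. The groups did not overlap with macrophages alone at 45 and 90 min, and at 180 min 1 library fell into the range of macrophages alone. The log2 fold changes were 0.32 (SE 0.090, adjusted p = 0.0131), 0.32 (SE 0.094, adjusted p = 0.00855) and 0.33 (SE 0.093, adjusted p = 0.00434) in order of time, with no call between times. Of the 24 alternatives, 22 kept the call at 45 min, 23 at 90 min and 23 at 180 min. It was lost at 45 min without library 3 of that group (0.28, adjusted p = 0.0608), at 90 min without library 2 (0.26, adjusted p = 0.0599) and at 180 min without library 1 (0.23, adjusted p = 0.0669), and at 45 min also after correction for length and GC (0.23, adjusted p = 0.0753). Across the alternatives its adjusted p lay between 0.00305 and 0.0753 at 45 min, 0.00445 and 0.0599 at 90 min, and 0.000338 and 0.0669 at 180 min.

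Polr2b, the second largest subunit, was at 63.0 ± 3.23 CPM at 90 min and 71.8 ± 3.08 CPM in macrophages alone, and fell by 0.19 on the log2 scale at both 90 and 180 min (adjusted p = 0.0206 and 0.014). Those calls were lost without library 3 of the group kept alone (-0.17, adjusted p = 0.0743 at 90 min, and -0.16, adjusted p = 0.0693 at 180 min) and with all libraries thinned to the smallest total (adjusted p = 0.0869 and 0.0862). The 180 min call was also lost without library 3 of that group (-0.15, adjusted p = 0.0883). Over the 24 alternatives the adjusted p spanned 0.00183 to 0.0869 at 90 min and 0.00151 to 0.0883 at 180 min. Polr2d and Polr2g, the other subunits particular to Pol II that were in the list, were not called against macrophages alone. Polr2g fell by 0.24 at 180 min against 45 min (adjusted p = 0.0153), a call lost without library 4 of 45 min (-0.20, adjusted p = 0.0751, with a span of 0.00036 to 0.0751 over the alternatives). Of the 5 subunits that Pol II shares with other polymerases, Polr2e, Polr2f, Polr2h, Polr2k and Polr2l, none was called against macrophages alone. Polr2h had the largest values, 0.30, 0.35 and 0.30 at 45, 90 and 180 min, at a level of only 4.99 ± 1.13 CPM in macrophages alone, with adjusted p from 0.175 to 0.307. Polr2e was higher by 0.37 (SE 0.11) at 180 min than at 90 min (adjusted p = 0.0198), and this call was lost without library 2 of 90 min (0.28, adjusted p = 0.118) or library 3 of 180 min (0.34, adjusted p = 0.0712), with a span of 0.00626 to 0.118.

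The promoters of Polr2a and Polr2c are shown because these subunits of the same enzyme were called in opposite directions at each time, and those of Cdk9 and Ccnt2 because they are the P-TEFb genes that rose. They are the 150 bases before the transcription start, from RefSeq on GRCm38.p6, written 5′ to 3′ on the gene's strand, where for Polr2a the 4 bases nearest the start are left out. Capitals mark the motifs searched on both strands, namely the TATA box as TATAAA, the GC box as GGGCGG, the CCAAT box as its name spells it, the core of the cyclic AMP response element as TGACG, the ETS site as CCGGAAG, and the EGR sites GCGGGGGCG and GCGTGGGCG, which share bases with a GC box where a G follows.
Polr2a, chr11:69758638-69758787, minus strand: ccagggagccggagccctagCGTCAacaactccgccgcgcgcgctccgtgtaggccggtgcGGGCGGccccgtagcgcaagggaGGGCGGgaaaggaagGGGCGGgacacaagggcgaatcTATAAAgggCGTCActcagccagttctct
Polr2c, chr8:94857300-94857449, plus strand: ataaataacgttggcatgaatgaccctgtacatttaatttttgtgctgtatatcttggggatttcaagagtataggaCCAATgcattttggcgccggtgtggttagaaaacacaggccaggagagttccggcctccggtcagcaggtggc
Cdk9, chr2:32712785-32712934, minus strand: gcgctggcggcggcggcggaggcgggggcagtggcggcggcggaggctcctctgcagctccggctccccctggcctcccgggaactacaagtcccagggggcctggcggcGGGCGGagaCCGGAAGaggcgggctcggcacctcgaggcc
Ccnt2, chr1:127774014-127774163, plus strand: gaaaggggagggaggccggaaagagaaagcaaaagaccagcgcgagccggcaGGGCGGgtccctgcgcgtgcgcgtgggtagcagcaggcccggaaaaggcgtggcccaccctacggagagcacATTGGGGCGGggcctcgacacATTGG
The Polr2a stretch holds TATAAA, 3 GC boxes and 2 response element cores, and its GC content is 68%. The Polr2c stretch holds a CCAAT box, has no GC box and is 46.7% GC, and TATAAA lies further upstream in its window. The Cdk9 stretch is 79.3% GC, with a GC box and an ETS site, and the Ccnt2 stretch holds 2 GC boxes and 2 CCAAT boxes on the other strand, a pair of which share a base.

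A RefSeq window of 250 bases before to 50 after the start was found for 36 of the 44 genes, and none for Nelfcd, Nelfe, Mepce, Ctr9, Tcea1, Polr2d, Polr2g and Polr2k. A GC box was found in 31 of the 36 (86.1%), beside 35.7% of all 32851 windows, which include those of noncoding genes. The ETS site was found in 33.3% beside 8.86% of all windows, the core TGACG in 41.7% beside 20.8%, and CCAAT in 30.6% beside 37.4%. TATAAA was found in 3 of 36 (8.33%), Nelfb, Polr2a and Polr2c, beside 13.6% of all windows. An EGR site was found in Aff4 and Cdk13 (5.56%), beside 3.47%. The 36 were counted as genes and the background as windows, so the shares are in unlike units wherever a gene has several windows. These are matches of letters and were not tested.

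Of the pausing factors, Supt5 of DSIF fell at 90 and 180 min, Supt4a of DSIF at 180 min, and the NELF genes were not called against macrophages alone. Supt5 (ENSMUSG00000003435, chromosome 7), the DSIF subunit that P-TEFb phosphorylates, stood at 221, 202, 206 and 199 CPM in macrophages alone and at 216, 218, 196 and 202 CPM at 45 min. Its values were 161, 193, 177 and 177 CPM at 90 min and 182, 168, 168 and 176 CPM at 180 min. The 45 min libraries lay within or beside the range of macrophages alone, and those of 90 and 180 min lay below both. Its log2 fold change against macrophages alone was 0.01 (adjusted p = 0.955) at 45 min, -0.22 (SE 0.050, adjusted p = 0.000488) at 90 min and -0.25 (SE 0.050, adjusted p = 4.45e-05) at 180 min, and it fell by 0.23 at 90 min against 45 min (adjusted p = 0.000224). Supt6, a histone chaperone that travels with elongating Pol II, was at 158 ± 14.9 CPM at 90 min, 151 ± 6.86 CPM at 180 min and 186 ± 8.13 CPM in macrophages alone (SD, n = 4 each), which gives log2 fold changes of -0.23 and -0.30 (adjusted p = 0.000995 and 7.84e-06). The calls of Supt5 and Supt6 at 90 and 180 min held under all 24 alternatives. Supt4a, the small DSIF subunit, fell by 0.29 at 180 min (adjusted p = 0.0185) and by 0.38 at 180 min against 45 min (adjusted p = 0.00129). Its counts are uncertain because a near-identical copy, Supt4b, could share reads. Its call against macrophages alone was lost without library 2 or 3 of the group kept alone (-0.27, adjusted p = 0.0558, and -0.26, adjusted p = 0.0699) or library 4 of 180 min (-0.22, adjusted p = 0.122), and with libraries thinned (-0.19, adjusted p = 0.201). Its adjusted p spanned 0.00542 to 0.201 over the alternatives.

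The 4 NELF genes showed values of either sign against macrophages alone, from -0.18 to 0.17, with adjusted p of at least 0.174. Nelfe (ENSMUSG00000024369, chromosome 17), the RNA-binding subunit, stood at 33.2, 26.9, 31.0 and 29.4 CPM in macrophages alone and at 36.3, 33.8, 33.0 and 32.7 CPM at 45 min. Later it stood at 37.0, 25.5, 31.2 and 29.0 CPM at 90 min and 26.5, 29.4, 28.6 and 28.7 CPM at 180 min. All 180 min libraries lay below all 45 min libraries, and both groups overlapped with macrophages alone. Set against 45 min, at 180 min Nelfe fell by 0.26 (SE 0.085, adjusted p = 0.0119), Nelfcd by 0.22 (adjusted p = 0.0266) and Nelfb by 0.18 (adjusted p = 0.0195), while Nelfa was 0.09 higher (adjusted p = 0.499). Against macrophages alone, Nelfe, Nelfcd and Nelfb were at 0.17, 0.13 and 0.13 at 45 min and at -0.09, -0.09 and -0.05 at 180 min. The 45 min libraries of Nelfcd and Nelfb did not overlap with those of macrophages alone, while their 180 min libraries did. The Nelfe call held under all 24 alternatives. In the test over the 3 times together no NELF gene was called. The adjusted p there was 0.0552 for Nelfe, 0.073 for Nelfb, 0.118 for Nelfcd and 0.288 for Nelfa. The Nelfcd call was lost without library 1 or 4 of 45 min (-0.20, adjusted p = 0.0786, and -0.22, adjusted p = 0.0577) or library 2 of 180 min (-0.16, adjusted p = 0.148), and the Nelfb call without library 4 of 180 min (-0.14, adjusted p = 0.103). With total counts as the only scaling both were lost too (adjusted p = 0.0656 for Nelfcd and 0.0684 for Nelfb), as was Nelfcd with libraries thinned (0.0841). The adjusted p spanned 0.0069 to 0.148 for Nelfcd and 0.00828 to 0.103 for Nelfb over the alternatives.

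P-TEFb genes moved in different directions. Cdk9 (ENSMUSG00000009555, chromosome 2), the kinase, stood at 92.7, 80.5, 83.7 and 76.9 CPM in macrophages alone and at 96.5, 97.2, 90.4 and 100 CPM at 45 min. It stood at 101, 104, 99.7 and 94.0 CPM at 90 min and 100, 95.2, 91.5 and 92.3 CPM at 180 min. The 90 min libraries lay above all libraries of macrophages alone, while at 45 and 180 min the ranges overlapped only at the highest library of macrophages alone. The log2 fold changes were 0.20 (SE 0.055, adjusted p = 0.00903), 0.25 (SE 0.056, adjusted p = 0.000509) and 0.18 (SE 0.056, adjusted p = 0.00979) at 45, 90 and 180 min. At 45 and 90 min they held under all alternatives. At 180 min the call was lost without library 4 of the group kept alone (0.15, adjusted p = 0.0552) and after correction for length and GC (0.13, adjusted p = 0.0613), with a span of 0.00146 to 0.0613.

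Of the cyclins that activate CDK9, Ccnt2 (ENSMUSG00000026349, chromosome 1) stood at 70.3, 74.3, 69.5 and 78.6 CPM in macrophages alone and at 62.3, 70.8, 67.2 and 58.7 CPM at 45 min. The later values were 96.3, 89.6, 90.2 and 91 CPM at 90 min and 75.4, 84.8, 97.9 and 84.9 CPM at 180 min. The 90 min libraries lay above all those of macrophages alone and of 45 min. Against macrophages alone its log2 fold change was -0.18 (adjusted p = 0.0547) at 45 min, 0.33 (SE 0.063, adjusted p = 6.1e-05) at 90 min and 0.23 (SE 0.063, adjusted p = 0.00265) at 180 min. It rose by 0.50 (SE 0.063) at 90 min against 45 min (adjusted p = 4.81e-09), and by 0.33 after correction for length and GC (adjusted p = 6.18e-06). The 180 min call against macrophages alone was lost without library 3 of that group (0.16, adjusted p = 0.0658), and its adjusted p spanned 0.000133 to 0.0658. Ccnt1, the other cyclin, was at 107 ± 0.971 CPM at 45 min, 110 ± 6.99 CPM at 90 min and 122 ± 4.84 CPM in macrophages alone (SD, n = 4 each), and fell by 0.19 at 45 min (adjusted p = 0.0111) and by 0.15 at 90 min (adjusted p = 0.0341). Both calls were lost without library 2 of the group kept alone (-0.14, adjusted p = 0.122, and -0.13, adjusted p = 0.135). The 45 min call was also lost without library 4 of 45 min (-0.17, adjusted p = 0.0641) and after correction for length and GC (-0.09, adjusted p = 0.304). The 90 min call was also lost without library 2 or 4 of 90 min (-0.13, adjusted p = 0.109, and -0.14, adjusted p = 0.102), with coding genes alone (0.0531) and with libraries thinned (0.0762). The adjusted p spanned 0.00108 to 0.304 at 45 min and 0.00945 to 0.135 at 90 min.

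The genes of the 7SK particle were mostly not called. Hexim1 (ENSMUSG00000048878, chromosome 11), which inhibits P-TEFb, stood at 101, 109, 103 and 101 CPM in macrophages alone and at 109, 100, 110 and 107 CPM at 45 min. Its values were 86.8, 107, 92.3 and 94.7 CPM at 90 min and 112, 101, 101 and 87.5 CPM at 180 min. All groups overlapped with macrophages alone, and the log2 fold changes were 0.05, -0.12 and -0.05, with adjusted p from 0.164 to 0.707. Its fall of 0.16 at 90 min against 45 min (adjusted p = 0.0309) was lost without library 1 of 90 min (-0.14, adjusted p = 0.0936), with a span of 0.00203 to 0.0936 over the alternatives. Mepce, which caps the 7SK RNA, fell by 0.29 (SE 0.086) at 90 min against macrophages alone (adjusted p = 0.0112), at 37.2 ± 6.83 CPM at 90 min and 45.3 ± 1.89 CPM alone (SD, n = 4 each). Without library 4 of 90 min the Mepce value was smaller, at -0.16, and the call was lost (adjusted p = 0.172, with a span of 0.000713 to 0.172). Its fall of 0.32 at 90 min against 45 min (adjusted p = 0.00294) was also smaller without that library, at -0.21 (adjusted p = 0.0452), the highest adjusted p of its 24 alternatives, all of which kept the call. Larp7, which binds the end of 7SK, was not called in any comparison.

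Of the BET proteins, which read acetylated histones, Brd2 rose by 0.10 (SE 0.038) at 180 min (adjusted p = 0.0402), with 587 ± 8.13 CPM at 180 min and 548 ± 8.11 CPM in macrophages alone (SD, n = 4 each). The groups did not overlap. The adjusted p nonetheless passed 0.05 without library 1, 2 or 4 of the group kept alone, library 1, 2 or 3 of 180 min or library 1 of 90 min (0.0513 to 0.0843, with log2 fold changes of 0.09 and 0.10), and with no filter on low counts (0.105) or only the 2 groups fitted (0.0501). After correction for length and GC the value was 0.04 (adjusted p = 0.461), and the adjusted p spanned 0.0013 to 0.461. Brd2 also rose by 0.14 at 180 min against 90 min (adjusted p = 0.00594), a call lost after correction for length and GC (0.10, adjusted p = 0.0643, with a span of 1.9e-06 to 0.0643). Brd3 rose by 0.27 at 180 min against 45 min (adjusted p = 0.00901) and was not called against macrophages alone. Its call was lost without library 2 of 180 min (0.22, adjusted p = 0.0541) and with libraries thinned (0.20, adjusted p = 0.09), with a span of 0.00318 to 0.09.

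Of the kinases that act later on the Pol II tail, Cdk12 fell at 45 min and Cdk13 at 90 and 180 min. Cdk12 was at 112 ± 4.03 CPM at 45 min and 130 ± 0.845 CPM in macrophages alone (SD, n = 4 each), a log2 fold change of -0.22 (SE 0.050, adjusted p = 0.00119) between groups that did not overlap. At 90 min it was higher than at 45 min by 0.21 (adjusted p = 0.00115), and at 90 and 180 min it was -0.02 from macrophages alone. Its calls held under all 24 alternatives. Cdk13, its close relative, fell by 0.14 at 90 min (adjusted p = 0.0403) and by 0.18 at 180 min (adjusted p = 0.00289), at 134 ± 2.54 CPM at 180 min and 152 ± 3.62 CPM alone (SD, n = 4 each). Its 45 min value was -0.11, and it was not called between times (-0.07, adjusted p = 0.267 at 180 min against 45 min). The 180 min call held under all alternatives. The 90 min call was lost without library 2, 3 or 4 of the group kept alone (-0.14, -0.12 and -0.14, with adjusted p = 0.0596, 0.127 and 0.0572) or library 1, 3 or 4 of 90 min (-0.12, -0.12 and -0.14, with adjusted p = 0.112, 0.109 and 0.0539). It was also lost with only the 2 groups fitted (0.0506), coding genes alone (0.0624) or correction for length and GC (0.102), and its adjusted p spanned 0.00702 to 0.127. Ccnk, their cyclin, and Cdk7, the kinase of the initiation factor TFIIH, were not called in any of the 6 comparisons.

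**Figure D3:**
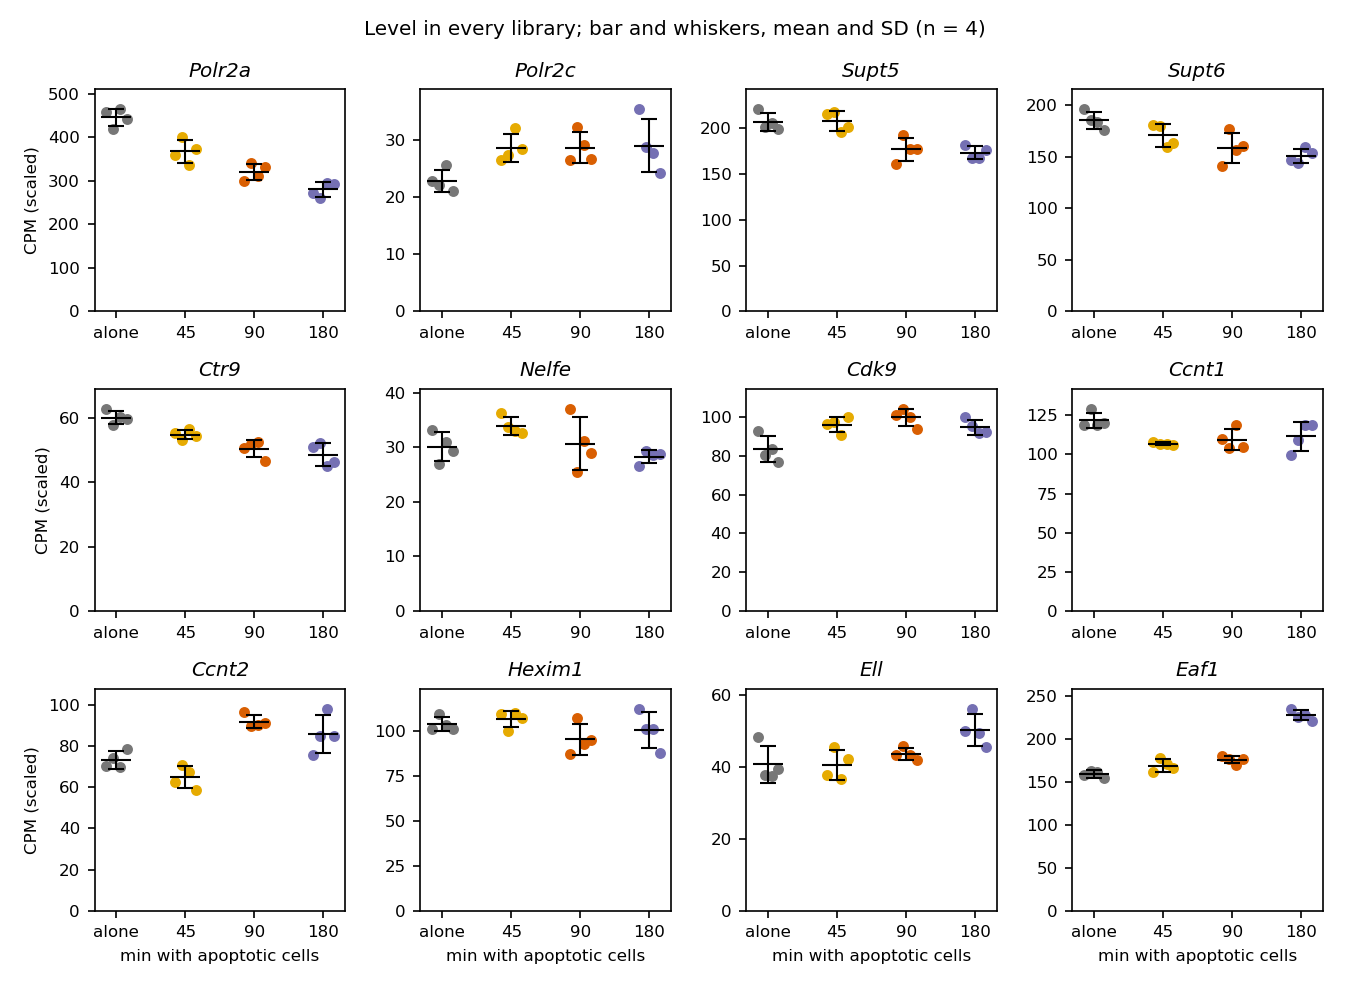
CPM of 12 of the 44 genes in every library of macrophages alone and at 45, 90 and 180 min, on linear axes from 0, with points for libraries and a bar with whiskers for the mean and SD (n = 4). The mean of Polr2a steps down at each time, Ccnt2 is highest at 90 min, and the 4 Eaf1 points at 180 min lie above all the others.

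In the super elongation complex 1 of 7 genes fell at 45 min, 2 rose at 90 min, and 4 rose and 1 fell at 180 min. Of all genes tested 6.11% fell at 45 min, 11.1% rose at 90 min, and 15.1% rose and 16% fell at 180 min. Eaf1 (ENSMUSG00000021890, chromosome 14), a partner that stimulates ELL proteins, stood at 158, 163, 162 and 154 CPM in macrophages alone and at 161, 178, 171 and 166 CPM at 45 min. Later it stood at 180, 177, 170 and 177 CPM at 90 min and 235, 226, 228 and 221 CPM at 180 min. The 180 min libraries lay far above every other library, and those of 90 min lay above macrophages alone. Eaf1 rose by 0.14 (SE 0.046, adjusted p = 0.0187) at 90 min and by 0.51 (SE 0.045, adjusted p = 2e-14) at 180 min against macrophages alone, and by 0.37 (SE 0.046, adjusted p = 3.45e-09) at 180 min against 90 min. The 180 min calls held under all 24 alternatives. The 90 min call was lost without library 1 or 4 of the group kept alone (0.12 each, adjusted p = 0.0711 and 0.0762) or library 1 of 90 min (0.12, adjusted p = 0.0843). It was also lost with no filter on low counts (0.06) and after correction for length and GC (0.0646), and its adjusted p spanned 0.00486 to 0.0843.

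Ell, which raises the elongation rate of Pol II, was at 50.2 ± 4.42 CPM at 180 min and 40.8 ± 5.18 CPM alone (SD, n = 4 each), a rise of 0.29 (SE 0.078, adjusted p = 0.00235) between groups that overlapped. Aff1 rose by 0.16 at 180 min (adjusted p = 0.00356), at 455 ± 23.0 CPM at 180 min and 409 ± 6.21 CPM alone (SD, n = 4 each), and both calls held under all alternatives, with Ell at 0.19 after correction for length and GC (adjusted p = 0.0381). Ell2 rose by 0.12 at 90 min (adjusted p = 0.0268) and at 180 min (adjusted p = 0.0175). Without library 1 of the group kept alone both were lost (0.08, adjusted p = 0.196, and 0.09, adjusted p = 0.106). The 90 min call of Ell2 was further lost without library 2 or 3 of the group kept alone, library 1, 3 or 4 of 90 min or library 2 or 3 of 180 min (0.10 to 0.12, adjusted p = 0.0528 to 0.0897), and with no filter on low counts (0.0829). The adjusted p spanned 0.00736 to 0.196 at 90 min and 0.00226 to 0.106 at 180 min. Aff4, the scaffold of the complex best known for binding P-TEFb, fell by 0.17 at 45 min (adjusted p = 0.00903) and by 0.13 at 180 min (adjusted p = 0.0272). With the length and GC trend removed the 45 min value was -0.01 (adjusted p = 0.917) and the 180 min value -0.08 (adjusted p = 0.12). The 45 min call was also lost without library 2 of the group kept alone (-0.14, adjusted p = 0.08) or library 1, 3 or 4 of 45 min (-0.15, -0.14 and -0.14, with adjusted p = 0.0535, 0.0587 and 0.0746). The 180 min call was lost without library 1, 2 or 4 of the group kept alone (-0.12, -0.11 and -0.13, with adjusted p = 0.0514, 0.107 and 0.0518) or library 1 of 180 min (-0.09, adjusted p = 0.166). It was lost as well with total counts alone (0.0811), no filter (0.0564), coding genes alone (0.0665) or libraries thinned (0.0544). The adjusted p spanned 0.0012 to 0.917 at 45 min and 0.0129 to 0.166 at 180 min. The chromatin readers of the complex, Mllt1 and Mllt3, were not called in any comparison.

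The PAF1 complex rides with Pol II and aids histone modification. Of the 5 genes listed as PAF1 and RTF1, 2 fell at 90 min, and at 180 min 2 fell and 1 rose. Of all genes, 9.97% fell at 90 min, and 16% fell and 15.1% rose at 180 min. Ctr9 (ENSMUSG00000005609, chromosome 7), the scaffold of the PAF1 complex, stood at 62.7, 57.9, 60.1 and 59.5 CPM in macrophages alone and at 55.3, 53.0, 56.5 and 54.3 CPM at 45 min. It stood at 50.6, 51.8, 52.5 and 46.6 CPM at 90 min and 50.8, 52.2, 45.0 and 46.2 CPM at 180 min. All libraries with apoptotic cells lay below those alone, although the 45 min value of -0.13 was not called (adjusted p = 0.174). Its log2 fold change was -0.26 (SE 0.064, adjusted p = 0.00206) at 90 min and -0.32 (SE 0.064, adjusted p = 6.68e-05) at 180 min, and both calls held under all 24 alternatives. At 180 min against 45 min it fell by 0.18 (adjusted p = 0.0204), a call lost without library 3 or 4 of 180 min (-0.15, adjusted p = 0.0889, and -0.17, adjusted p = 0.0615) or with total counts alone (0.0666), with a span of 0.00418 to 0.0889. Cdc73, the subunit also known as parafibromin, fell by 0.18 at 90 min (adjusted p = 0.0392) and by 0.20 at 180 min (adjusted p = 0.013). The 90 min call was lost without library 2, 3 or 4 of the group kept alone (-0.16, -0.18 and -0.17) or library 1, 2 or 4 of 90 min (-0.17 each), with adjusted p from 0.0772 to 0.101. The 180 min call was lost without library 2 of the group kept alone (-0.18, adjusted p = 0.0558) or library 2 or 3 of 180 min (-0.16, adjusted p = 0.0636, and -0.18, adjusted p = 0.0521). Both were lost after correction for length and GC (0.152 and 0.0769), and the 90 min call with coding genes alone (0.0541) or libraries thinned (0.0571). The adjusted p spanned 0.0135 to 0.152 at 90 min and 0.000982 to 0.0769 at 180 min. Paf1 itself rose by 0.22 at 180 min (adjusted p = 0.0316), a call lost without library 2, 3 or 4 of the group kept alone (0.22, 0.20 and 0.21, with adjusted p = 0.0576, 0.0929 and 0.0663) or library 1 or 2 of 180 min (0.18 each, adjusted p = 0.107 and 0.114). After correction for length and GC it was 0.14 (adjusted p = 0.158), and the adjusted p spanned 0.0137 to 0.158. Paf1 was not called in the test over the 3 times together (adjusted p = 0.0746). Leo1 and Rtf1 were not called in any comparison. The FACT genes Supt16 and Ssrp1, which open nucleosomes ahead of the polymerase, were likewise called in none. Tcea1, the TFIIS factor that restarts stalled Pol II, fell by 0.18 at 180 min against 45 min (adjusted p = 0.038), a call lost without library 1 or 3 of 45 min (-0.17 and -0.18, with adjusted p = 0.0769 and 0.0543) or library 3 or 4 of 180 min (-0.15 and -0.18, with adjusted p = 0.119 and 0.0583). It was also lost with total counts alone (0.102), coding genes alone (0.0765) or libraries thinned (0.0778). After correction for length and GC it was -0.38 (adjusted p = 7.99e-06), and its adjusted p spanned 7.99e-06 to 0.119. Tcea1 was not called in the test over the 3 times together (adjusted p = 0.162).

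Between times, 4 of the 44 genes rose and 4 fell at 90 min against 45 min, beside 14.8% rising and 13.3% falling of all genes. At 180 min against 90 min 4 rose and 1 fell, beside 4.45% and 6.97%. By 180 min 6 rose and 10 fell against 45 min, beside 18.3% and 18%. The calls that held under all alternatives were Ccnt2 and Cdk12 rising and Supt5, Mepce and Polr2a falling at 90 min against 45 min, and Eaf1 rising and Polr2a falling at 180 min against 90 min. At 180 min against 45 min they were Ccnt2 (0.41, and 0.25 after correction for length and GC), Cdk12 (0.20), Aff1 (0.25), Ell (0.30) and Eaf1 (0.43) rising, and Nelfe, Supt4a, Supt5 (-0.26), Supt6 (-0.18) and Polr2a (-0.39) falling. Of the other calls, Aff1 and Aff4 at 90 min against 45 min (0.12 each, adjusted p = 0.0279 and 0.0359) were the least stable. Aff1 was lost without any library other than 2 of 45 min, 1 of 90 min or 1 of 180 min (0.08 to 0.10, adjusted p = 0.0611 to 0.214), and with no filter (0.114) or only the 2 groups fitted (0.0593). Aff4 was lost without any library other than 1 of 90 min (0.08 to 0.12, adjusted p = 0.056 to 0.257), and with no filter (0.152) or only the 2 groups fitted (0.0704). The adjusted p spanned 0.00846 to 0.214 for Aff1 and 0.0133 to 0.964 for Aff4. Aff1 at 180 min against 90 min (0.13, adjusted p = 0.0343) was lost without library 1 of 90 min (0.10, adjusted p = 0.161) or library 3 or 4 of 180 min (0.13, adjusted p = 0.0723, and 0.12, adjusted p = 0.107) and with only the 2 groups fitted (0.0738), with a span of 0.00493 to 0.161.

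Over all 6 comparisons 29 of the 44 genes were called at least once, beside 52.9% of all genes, and 21 of the 44 were called against macrophages alone at some time, beside 40.7% of all genes. Of the 67 calls, 34 held under every alternative, 3 of 6 at 45 min, 6 of 14 at 90 min and 8 of 18 at 180 min against macrophages alone. Across the 44 genes the log2 fold change at 45 min ran against exon length (Spearman's rho = -0.52 over 44 genes), beside -0.20 over 14084 genes with a length. At 90 and 180 min the rho was -0.18 and -0.15 for the 44 genes and -0.11 and -0.11 over all. These are descriptions across genes of the same libraries. At 180 min the genes that rose had a median exon length of 5490 bases, those that fell 7095 bases and those not called 3464 bases, and the genes not called were also lower in level, with a median of the mean log2 CPM of 4.99, against 6.55 for those that rose and 7.14 for those that fell.

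Other genes of transcription by the 3 polymerases, 153 in 7 lists of which 148 were tested, were called in 18 cases at 45 min (5 higher, 13 lower), 32 at 90 min (15 higher, 17 lower) and 37 at 180 min (17 higher, 20 lower). That is 12.2%, 21.6% and 25% of those tested, beside 10.8%, 21.1% and 31.1% of all genes tested and 13.6%, 31.8% and 40.9% of the pausing and elongation genes. The lists and the pausing and elongation genes were chosen with earlier results of these data known, so these shares are descriptions. Among other elongation factors 3 of 32 rose and 5 fell at 45 min, 3 rose and 6 fell at 90 min, and 5 rose and 7 fell at 180 min. Ppp1r10 encodes PNUTS, the subunit that directs protein phosphatase 1 to elongating Pol II. Of the genes named from these 7 lists, Ppp1r10 had the largest changes against macrophages alone. It was at 91.7 ± 1.38 CPM in macrophages alone, 133 ± 6.88 at 45 min, 242 ± 9.32 at 90 min and 142 ± 3.04 at 180 min (SD, n = 4 each), which gives rises of 0.54, 1.40 and 0.63 (adjusted p = 2.65e-13, 7.58e-32 and 8.9e-17). Zc3h4, a restrictor of early transcription, rose by 0.36 at 90 min and 0.41 at 180 min, and Mllt6 by 0.36 at 180 min.

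The shares of all genes that rose and fell were 4.69% and 6.11% at 45 min, 11.1% and 9.97% at 90 min, and 15.1% and 16% at 180 min. Integrator, which cleaves transcripts at paused Pol II, had no call among 14 genes at 45 min. At 90 min 2 of its genes rose and 4 fell, and at 180 min 2 rose and 2 fell, with Ints3 at 0.36 and 0.22, Ints8 at 0.22 and 0.28, and Ints9 at -0.19 and -0.39. Of 32 Mediator genes 3 fell at 45 min, 1 rose and 3 fell at 90 min, and 2 rose and 3 fell at 180 min (15.6% called, beside 31.1% of all genes), and Med13 of its kinase module fell at each time, by 0.28, 0.16 and 0.28. Of 29 general initiation factors 1 rose and 1 fell at 45 min, and 2 rose and 1 fell at 90 min. At 180 min 3 rose and 2 fell. Gtf2a1 was at 0.26 and 0.38 at 90 and 180 min. Gtf2h2, a TFIIH subunit, was at 0.60 at 180 min and Taf7 at -0.32. Of 22 cleavage and termination genes 1 rose and 3 fell at 45 min, 5 rose and 1 fell at 90 min, and 4 rose and 4 fell at 180 min. Pcf11, a termination factor that binds the Pol II tail, rose by 0.51 at 90 min and 0.57 at 180 min, and Cpsf7 by 0.43 and 0.51. Polr1a, the largest subunit of RNA polymerase I and the counterpart of Polr2a, fell by 0.17, 0.32 and 0.35 at 45, 90 and 180 min (adjusted p = 0.0357, 1.42e-05 and 9.64e-07), among 8 tested genes of that polymerase, of which 1 other, Polr1b, fell at 90 min. Of 11 RNA polymerase III genes none was called at 45 min, 2 rose at 90 min, and 1 rose and 1 fell at 180 min.

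**Figure D4:**
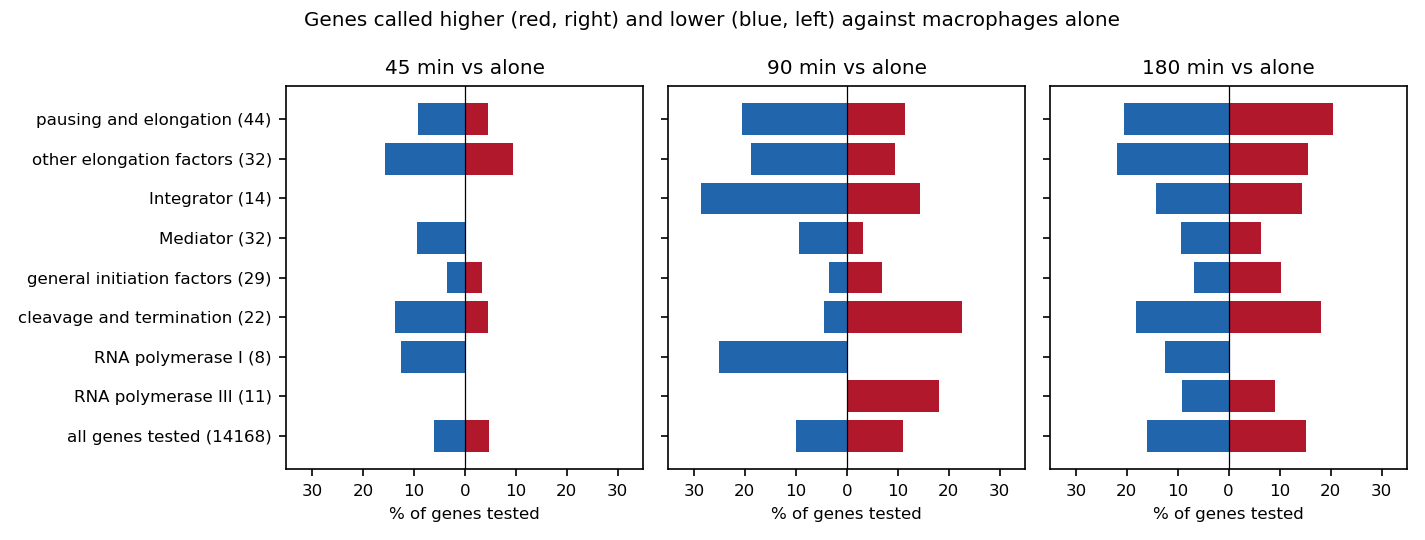
Share of genes called higher (red, to the right) and lower (blue, to the left) against macrophages alone at 45, 90 and 180 min, in % of the genes tested, for the 44 pausing and elongation genes, 7 lists of other transcription genes and all genes tested, with the number tested in brackets. The 44 genes show 9.09% lower and 4.55% higher at 45 min, and 20.5% each way at 180 min, beside 16% and 15.1% of all genes.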

How the data were processed

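Raw counts per gene of 16 libraries, 4 in each of 4 groups, were deposited by the authors in 1 table, not normalized. Per the submitters' processing notes, STAR 2.7.9a, SAMtools and HTSeq were used with build mm39. No annotation release, strand setting or handling of human reads is stated. Per the labels' protocols, the library kit was directional. Column names give the group and no replicate number, so libraries are numbered in file order, and 0 columns were left unused. Symbols and exon lengths came from GENCODE M21, of the build before mm39 (52083 of 55416 IDs matched), and promoters from RefSeq.

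Genes were kept by filterByExpr (minimum count 10, total 15), scaled by TMM, and tested with edgeR 4.0.16 (R 4.3.3) by the quasi-likelihood F test over all 16 libraries, with Benjamini-Hochberg adjustment over 14168 genes, called at 0.05. Levels are in CPM, using the scaled library sizes. Replicates differed by more than sampling noise (chi-square per degree of freedom 3.98 to 10.2), and the biological coefficient of variation was 7.81%. The alternatives were DESeq2 1.42.0 and its size factors, total counts, no filter, only the compared groups, coding genes alone, thinning to 10.7 M, each library left out, and, chosen after seeing the data, the length and GC trend removed (mgcv 1.9.3). Intervals cover the spread between libraries only. The members and lists were chosen with earlier results of these data known. Values in every library are given for called members with an absolute log2 fold change of at least 0.3 against macrophages alone and for Polr2a, Cdk9, Hexim1, Nelfe and Supt5, and up to 3 genes per other list were named by the smallest p over the 3 times.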

Additional observations from a re-analysis of the deposited data

Results flagged for a closer look

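A library far from the other 3 of its group was looked for in each of 176 groups (44 genes in 4 groups) by Dixon's test, which sets the gap from the nearest library against the range and which chance passes in about 1 of 20 groups, and 4 were found. Cdk7 at 90 min was highest in library 4, at 27.7 CPM, with the others from 24.9 to 25.3 CPM. Ccnt1 in macrophages alone was highest in library 2, at 129 CPM, with the others from 119 to 120 CPM, and both Ccnt1 calls against macrophages alone were lost without that library. Ccnk at 180 min was lowest in library 2, at 56.3 CPM, with the others from 66.1 to 67.7 CPM. Polr2g at 90 min was lowest in library 4, at 28.9 CPM, with the others from 34.2 to 34.7 CPM.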

How the results depend on the processing

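No paired analysis was possible because the columns of the count table carry no replicate numbers, so the planned replicate block was not run. Counts of called genes moved by over 1.5 times as follows. With the length and GC trend removed, 4 genes rose at 45 min against macrophages alone (3 fell) and 12 fell at 90 min against 45 min (3 rose). With only the 2 groups compared, 8 fell at 45 min, and 2 rose and 7 fell at 90 min against 45 min. With no filter on low counts, 3 rose at 90 min against macrophages alone and 2 rose at 90 min against 45 min. With DESeq2 size factors or the DESeq2 test 7 fell at 90 min against 45 min, and 4 rose with the size factors. With total counts alone 6 fell and 7 rose at 180 min against 45 min. The value of Aff4 at 90 min against 45 min came to -0.00 (adjusted p = 0.964) with the length and GC trend removed. With that trend removed the split at 180 min against macrophages alone was 6 rising and 13 falling, which is a change in the split and not a move of either count by over 1.5 times. The cause was not tested for any of these.

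Leaving out 1 library at a time, 1 to 2 genes rose and 2 to 5 fell at 45 min against macrophages alone, with 1 rising without library 3 of 45 min and 2 falling without library 2 of macrophages alone or library 4 of 45 min. At 90 min 3 to 5 rose, with 3 without library 1 of macrophages alone or library 1 of 90 min, and 5 to 9 fell, with 5 without library 4 of 90 min. At 180 min 6 to 9 rose and 6 to 9 fell. At 90 min against 45 min 2 to 4 rose and 4 to 8 fell. There, 2 rose without any library other than 2 of 45 min, 1 of 90 min or 1 of 180 min, and 7 or 8 fell without any library other than 1, 2 or 4 of 45 min or 1 or 4 of 90 min. At 180 min against 90 min 2 to 5 rose, with 2 without library 3 of 180 min, and 1 fell each time. At 180 min against 45 min 5 to 7 rose and 8 to 12 fell, and 20 to 26 genes were called over the 3 times. No scaling moved the median of all genes by over 0.1. Polr2l and Polr2h had the lowest CPM of the 44 genes.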
